A study of Mus musculus with 12 samples.

Results

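The constitutive proteasome subunits are 36 genes whose symbols are Psma, Psmb, Psmc or Psmd followed by a number, leaving out Psmb8, Psmb9 and Psmb10, which encode the catalytic subunits of the immunoproteasome. They comprised 8 alpha and 8 beta subunits of the 20S core, 6 ATPases of the 19S cap and 14 non-ATPase genes of the cap, out of 18193 genes with a probe set of their own. Only probe sets assigned to a single gene were used, and the probe set with the highest mean signal stood for its gene. Of the 36 genes, 35 passed a filter on low signal that left 12429 genes to test. Psmb11, the beta subunit known from thymic epithelium, did not pass: its signal was above the median of its array on 0 of 12 arrays.

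Messenger RNA was measured in dendritic cells grown from mouse bone marrow for 10 days with GM-CSF at 20 ng/ml, on 12 single-colour Affymetrix arrays. The mice were BALB/c or BL6, aged 6 to 8 weeks, and each strain gave 1 array in each of 6 conditions. Cultures received no retinoid, all-trans-retinoic acid (RA, labelled 10 nmol) or Ro41-5253 (Ro, labelled 100 nmol), an antagonist of the retinoic acid receptor alpha, from the start of culture, each without or with LPS at 1 ug/ml. No label says whether the cultures of a strain came from separate animals, so p-values measure the spread among these arrays, and a batch that ran with the replicate number and the strain itself cannot be told apart.

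The proteasome degrades proteins tagged with ubiquitin. Its 20S core is a barrel of alpha rings, which gate the entrance, around beta rings, which hold the proteolytic sites of Psmb5, Psmb6 and Psmb7; the 19S cap binds the tagged protein, removes the ubiquitin chain, unfolds the protein with its ATPase ring and feeds it into the core. In dendritic cells the peptides it releases supply antigen presentation by MHC class I, and in cells exposed to inflammatory signals Psmb8, Psmb9 and Psmb10 can take the places of Psmb5, Psmb6 and Psmb7 in newly built cores.

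The deposited signals were not at a common level: the mean of each array after trimming 2% at either end ran from 191 to 263 in the 6 arrays without LPS and from 159 to 209 in the 6 with LPS. Values below are therefore after quantile normalization, and differences are log2(signal + 16); the counts under the deposited scaling and under a common trimmed mean stand beside them, because the scaling moved the median LPS change of all genes from -0.01 to -0.41 and -0.12. A gene was called at a limma adjusted p under 0.05. Signals under 41.8, the highest array median, are treated as not above background. Of the dendritic cell markers listed, 8 of 8 had a mean signal above background (H2-Ab1 between 7216 and 12090). Flt3 and Zbtb46 nevertheless fell under it on some arrays, with lowest signals of 5.33 and 22.95. All 3 T cell markers were at background by mean signal. The probe-set ratio between the 3′ and 5′ ends of Gapdh mRNA lay between 0.768 and 0.842.

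Proteasome genes in many cells respond together through Nfe2l1 and Nfe2l2, transcription factors that bind antioxidant response elements. RefSeq start sites (GRCm38.p6) were given for 29 of the 36 genes. In the 250 bases before the start, the core of that element (TGACNNNGC, either strand) was present in 5 of the 29 (17.2%) against 11.5% of 27025 genes. These 5 stretches are shown with the core in capitals. After quantile normalization Psmb6 and Psmc6 were called higher with LPS, and Psmb5, Psmd9 and Psmd12 were not called. Psmb5 was however called higher under a common trimmed mean, Psmd9 lower under the deposited scaling and Psmd12 higher for LPS without retinoid. A link between the core and the LPS change was not tested.
Psmb6, chr11:70525332-70525356, plus strand: ggcggactaaagagagTGACGGAGC
Psmc6, chr14:45329581-45329621, minus strand: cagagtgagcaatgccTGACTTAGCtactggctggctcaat
Psmb5, chr14:54618018-54618058, minus strand: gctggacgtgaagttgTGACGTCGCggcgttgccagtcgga
Psmd9, chr5:123228143-123228183, plus strand: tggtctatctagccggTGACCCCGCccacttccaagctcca
Psmd12, chr11:107479278-107479305, minus strand: ctgaggggggcaaatgTGACACAGCaga
The core in Psmb6 ended 1 base before the start site, and that in Psmc6 lay 219 bases before it. A CCAAT box, the motif bound by Nfya, Nfyb and Nfyc, was present in 12 of the 29 (41.4%) against 37.5% of genes, and an ETS core (CCGGAAG) in 9 of the 29 (31%) against 7.83% of genes. Psmd10 and Psmd6, the genes with the largest LPS rise and fall after quantile normalization, are shown over all 250 bases, with the CCAAT boxes of Psmd10 (ATTGG where on the other strand) and the ETS core of Psmd6 in capitals.
Psmd10, chrX:140956712-140956961, minus strand: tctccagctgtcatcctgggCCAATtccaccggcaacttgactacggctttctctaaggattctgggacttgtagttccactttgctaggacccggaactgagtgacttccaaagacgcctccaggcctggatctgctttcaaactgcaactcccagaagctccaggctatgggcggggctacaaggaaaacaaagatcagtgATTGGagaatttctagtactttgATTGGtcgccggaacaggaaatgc
Psmd6, chr14:14120946-14121195, minus strand: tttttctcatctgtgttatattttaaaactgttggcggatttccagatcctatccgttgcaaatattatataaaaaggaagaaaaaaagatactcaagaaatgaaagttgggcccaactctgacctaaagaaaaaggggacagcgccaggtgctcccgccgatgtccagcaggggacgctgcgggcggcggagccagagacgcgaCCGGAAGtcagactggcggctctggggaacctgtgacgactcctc
No antioxidant response element core was found in either window. A match of letters describes the sequence and is not a binding site, and no factor's binding was measured here.

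LPS moved the constitutive genes in both directions. Of 35 genes, 13 rose, 4 were called lower and 18 did not pass the test; over all 12429 genes 24.3% were called higher and 29% lower. Psma8, 1 of these 4 and of the lower genes counted under each scaling, was below background on every array and passed the filter on low signal only through arrays without LPS, so nothing is read from its call. The median change of the 35 was 0.15 on the log2 scale, with a range from -1.001 to 1.02, against -0.01 for all genes. Under the deposited scaling 7 genes were higher and 8 lower, with 11% and 47.9% of all genes called in these directions and medians of -0.04 and -0.41; under a common trimmed mean 19 were higher and 3 lower, with 19.6% and 33.5% of all genes called and medians of 0.31 and -0.12. The share of higher calls among all called genes was 45.6%, 18.7% and 36.9% under the 3 scalings. Called under all 3 were the higher Psma6, Psmb6, Psmc6, Psmd4, Psmd8, Psmd10 and Psmd11 and the lower Psmc3 and Psmd6, besides Psma8, and no gene was called in opposite directions. The order of the 35 changes was close between scalings, with Spearman's rho of 0.93 between quantile and deposited values over genes that share arrays. The calls of Psma2, Psma5, Psmb7, Psmc1, Psmc5 and Psmd8 were lost when 1 array or another was left out. The mean of all kept probe sets of a gene was also used in place of the brightest. The changes of Psma6, Psmc6 and Psmd4 were then 0.18, 0.16 and 0.12 and were not called. The other probe sets of Psma6 gave 0.52, 0.05 and -0.26 at mean deposited signals of 4696, 148 and 21.8. Those of Psmd4 gave 0.49 and -0.58 at 1626 and 59.9, and those of Psmc6 -0.04 and -0.16 at 190 and 35.2.

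**Figure D1:**
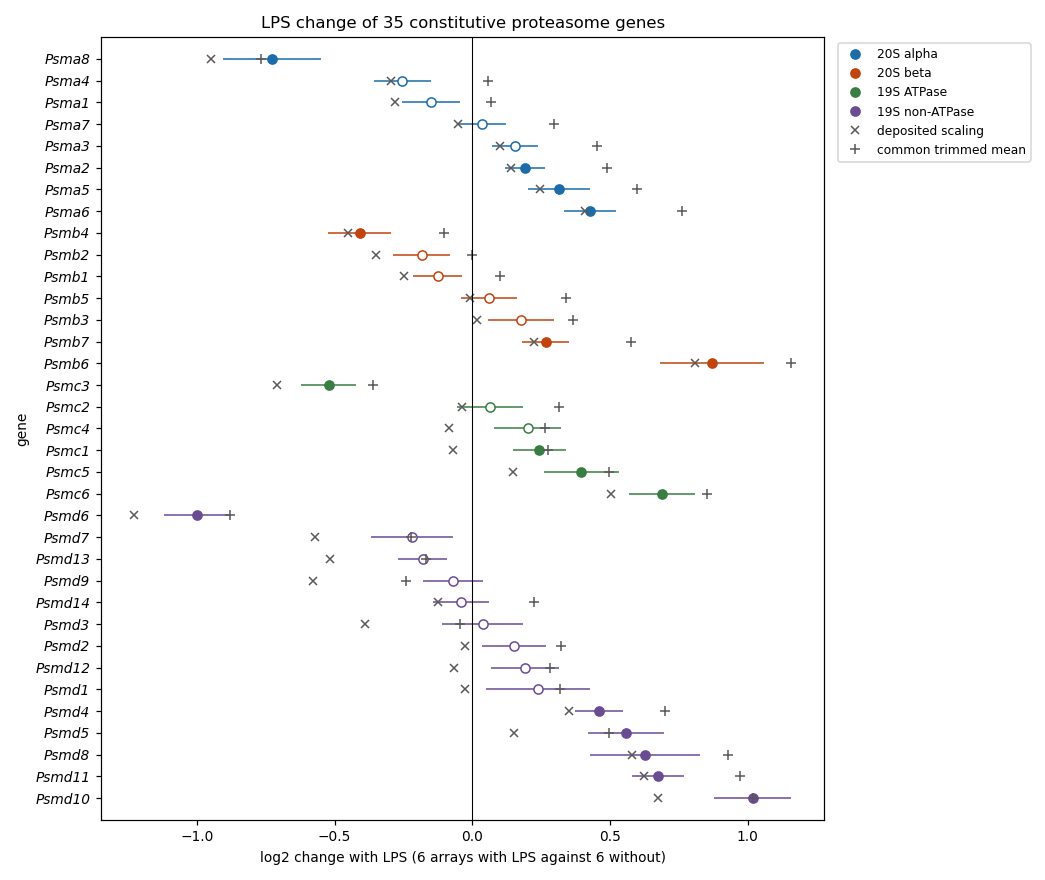
Log2 change with LPS (6 arrays with LPS against 6 without) of the 35 genes that passed the filter, by class; circles are quantile-normalized values with the standard error as bars, filled where the gene was called, crosses the deposited scaling and plus signs the common trimmed mean. Psmd10 lies at 1.02 and Psmd6 at -1.001, and each class holds genes on both sides of 0; Psma8 was below background.

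Markers of other cells moved with LPS as well. All 7 granulocyte markers and all 5 markers of dividing cells were called lower. The summed signal of the first went from 9084-41930 without LPS to 404-4217 with it, and that of the second from 3150-8987 to 374-1599. Mpo, 1 of the 7, had a mean normalized signal of 41.0, under 41.8, and nothing is read from its call. Of 5 macrophage markers, 2 fell. Of 8 dendritic cell markers, 2 rose and 1 fell. The 3 B cell markers on the arrays were at background by mean signal, and 1 of them was called higher. The part of these cells in the proteasome changes was not tested. In such bulk samples fewer cells of a type and less RNA per cell cannot be told apart.

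The largest rise after quantile normalization was that of Psmd10 (gankyrin), an assembly chaperone that binds an ATPase of the cap. Without LPS its normalized signal was 519, 434 and 425 in BALB/c cultures with no retinoid, RA and Ro, and 753, 665 and 800 in BL6. With LPS the same order gave 1111, 1187 and 687 in BALB/c and 1664, 1759 and 1086 in BL6. Every LPS culture exceeded its own partner, although the BALB/c culture with Ro and LPS stayed below the BL6 cultures without retinoid or with Ro. The change was 1.02 ± 0.14 (SE, 6 arrays against 6), a 2.03-fold rise (limma adjusted p = 0.000118). Under the deposited scaling and a common trimmed mean it was 0.67 and 1.02, below the 0.81 and 1.16 of Psmb6.

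Among the other chaperones in the class, Psmd5, which holds back premature cap assembly, rose by 0.56 ± 0.14 (SE; adjusted p = 0.00586, but 0.469 under the deposited scaling). Psmd9 had a change of -0.07 (adjusted p = 0.612), although it was called lower under the deposited scaling at -0.58 (adjusted p = 0.00375).

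Psmd6, a structural subunit of the lid of the cap, showed the opposite pattern. Its signal without LPS was 2051, 2477 and 2445 in BALB/c (no retinoid, RA, Ro) and 2457, 2751 and 2903 in BL6. With LPS it was 926, 1122 and 1401 in BALB/c and 948, 1900 and 1390 in BL6. The groups did not overlap, the highest LPS array at 1900 lying under the lowest array without LPS at 2051. The fall was -1.001 ± 0.12 (SE), or 2.00-fold (adjusted p = 4.33e-05), and a second probe set of the gene gave -1.09.

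Psmd11, a lid subunit that clamps lid, base and core together, rose by 0.67 ± 0.09 (SE; adjusted p = 0.000125). Its 6 arrays without LPS lay between 2588 and 3520 (median 3055) and its 6 with LPS between 3969 and 5941 (median 5010), without overlap. Its 3 other probe sets with mean signals of 1517, 824 and 771 gave changes of 0.37, 0.34 and 1.16, so the probe sets of the gene differed in the size of the rise, for a reason that was not tested. Psmd8, which joins the lid last, rose by 0.63 ± 0.20 (SE, limma adjusted p = 0.0209). By pair of cultures (no retinoid, RA, Ro) its change was 1.36, 1.30 and 0.53 in BALB/c and 0.66, 0.04 and -0.14 in BL6. Its interaction of strain with LPS was 0.88 and did not pass (limma adjusted p = 0.505). Psmd4, a ubiquitin receptor, rose by 0.46 ± 0.09 (SE, limma adjusted p = 0.00108).

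The remaining cap genes without ATPase activity did not pass the test. These were the scaffolds Psmd1 and Psmd2, the deubiquitinase Psmd14 and its partner Psmd7, and the lid subunits Psmd3, Psmd12 and Psmd13, with changes between -0.22 (Psmd7) and 0.24 (Psmd1). Psmd7 and Psmd13 were called lower under the deposited scaling (-0.57 and -0.52, adjusted p = 0.0148 and 0.00301), and Psmd2 higher under a common trimmed mean (0.32, adjusted p = 0.0397).

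**Figure D2:**
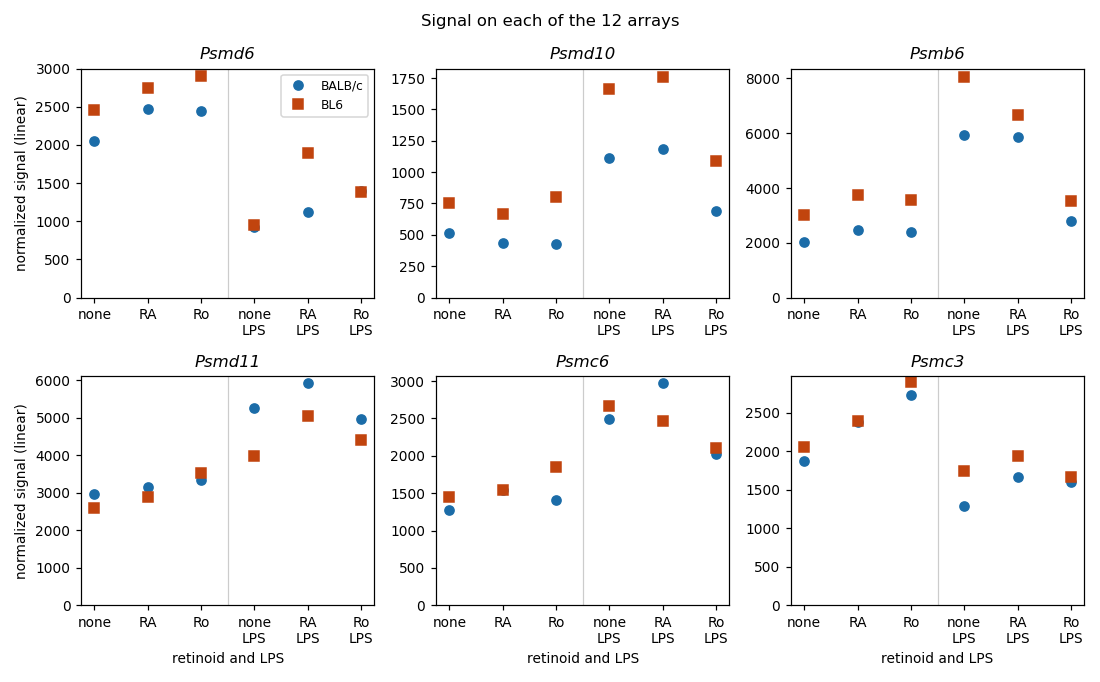
Normalized signal (linear axis from 0) of 6 genes on each of the 12 arrays, by retinoid and LPS, with circles for BALB/c and squares for BL6. Psmd6 and Psmd11 separate the arrays without and with LPS, and the Psmb6 arrays with Ro and LPS (2804 and 3510) lie apart from the other 4 LPS arrays.

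The ATPases, which unfold the protein, held 3 genes that rose, 1 that fell and 2 that did not pass. Psmc6 rose by 0.69 ± 0.12 (SE; adjusted p = 0.000601). Its arrays without LPS lay between 1279 and 1847 (median 1495) and those with LPS between 2024 and 2979 (median 2483), again without overlap. Psmc5 rose by 0.40 and Psmc1 by 0.24 (adjusted p = 0.0282 and 0.0495), and neither was called under the deposited scaling, where Psmc1 was at -0.07. Psmc3 fell by 0.52 ± 0.10 (SE; adjusted p = 0.0012) and was lower with LPS in 6 of 6 pairs of cultures that shared strain and retinoid, although its groups overlapped. Psmc2 and Psmc4 had changes of 0.07 and 0.20 and did not pass, though Psmc2 was called higher under a common trimmed mean (0.31, adjusted p = 0.0489).

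Among the alpha subunits, 3 rose, Psma8 was called lower and 4 did not pass. Psma6 rose by 0.43 ± 0.10 (SE; adjusted p = 0.00304), Psma5 by 0.32 (adjusted p = 0.034) and Psma2 by 0.19 (adjusted p = 0.0471); the last 2 were not called under the deposited scaling. Psma1, Psma3, Psma4 and Psma7 lay between -0.25 and 0.15 and did not pass, though a common trimmed mean called Psma3 and Psma7 higher (0.45 and 0.30, adjusted p = 0.00368 and 0.0205). Psma8, the alpha subunit known from testis, passed the filter only through 3 arrays without LPS, and its call as lower is not read as a fall. No array was above background: its signals were 30.4, 36.7 and 18.95 in BALB/c and 23.0, 31.5 and 24.2 in BL6 without LPS, and 21.9, 17.7 and 10.5 in BALB/c and 5.81, 8.56 and 1.14 in BL6 with it. No fold is given for it.

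Of the 7 beta subunits tested, 2 rose, 1 fell and 4 did not pass. The structural subunit Psmb4 fell by 0.41 ± 0.11 (SE; adjusted p = 0.0107), which was lost under a common trimmed mean (-0.10, adjusted p = 0.473). Psmb1, Psmb2 and Psmb3, also without proteolytic sites, lay between -0.18 and 0.18 and did not pass. Psmb3 was called higher under a common trimmed mean (0.37, adjusted p = 0.0358) and Psmb2 lower under the deposited scaling (-0.35, adjusted p = 0.04). The probe sets of Psmb3 differed: the one used gave 0.18 at a mean deposited signal of 2225, and a second gave -0.19 at 1970. The catalytic subunits differed among themselves: Psmb6 and Psmb7 rose and Psmb5 did not pass.

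Psmb6, which carries the site that cuts after acidic residues, had signals of 2017, 2480 and 2403 in BALB/c and 3017, 3763 and 3567 in BL6 without LPS (no retinoid, RA, Ro). With LPS they were 5948, 5877 and 2804 in BALB/c and 8060, 6667 and 3510 in BL6. The 4 LPS arrays without Ro were above every array without LPS, whereas the BL6 array with Ro and LPS was slightly below its partner. The averaged change was 0.87 ± 0.19 (SE), 1.83-fold (adjusted p = 0.0026).

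Psmb7, which carries the site that cuts after basic residues, had signals of 3048, 3737 and 3450 in BALB/c and 3201, 3871 and 4552 in BL6 without LPS. With LPS they were 3972, 4391 and 4234 in BALB/c and 4460, 4702 and 4347 in BL6. The arrays overlapped, since the BL6 culture with Ro alone lay above every LPS culture but that with RA in BL6. Its rise of 0.27 ± 0.08 (SE; adjusted p = 0.02) was not called under the deposited scaling (0.23, adjusted p = 0.0996). Psmb5, which carries the site that cuts after hydrophobic residues, had 2905, 3232 and 3523 in BALB/c and 3114, 3796 and 3832 in BL6 without LPS. The LPS arrays gave 3048, 3228 and 3104 in BALB/c and 3445, 5217 and 3493 in BL6. The 12 Psmb5 arrays overlapped throughout, apart from a high BL6 culture with RA and LPS, and the change was 0.06 ± 0.10 (SE; adjusted p = 0.648); it was called higher at 0.34 (adjusted p = 0.0219) under a common trimmed mean.

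Each constitutive catalytic gene was set against the immunoproteasome gene that replaces it, as the LPS change of the log2 ratio within a pair of cultures. Psmb8 over Psmb5 rose in 6 of 6 pairs, by 0.49 ± 0.03 (SD, n = 6 pairs; exact permutation test within pairs, two-sided p = 0.0312, the smallest the 64 arrangements allow, and 0.0938 adjusted over the 3 ratios). The 6 pairs lay between 0.45 and 0.54. With the mean of all kept probe sets of a gene the ratio rose by 0.97 (adjusted p = 0.0938). Psmb8 itself rose by 0.55 ± 0.10 (SE; limma adjusted p = 0.000648).

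Psmb9 over Psmb6 was higher with LPS in 3 of 6 pairs, with a mean of 0.15 ± 0.61 (SD, n = 6 pairs; exact permutation p = 0.594, adjusted 0.719). It was -0.38 and -0.29 in the BALB/c and BL6 pairs without retinoid, -0.38 and 0.18 in those with RA, and 0.72 and 1.03 in those with Ro. Psmb9 rose by 1.02 ± 0.07 (SE; limma adjusted p = 1.73e-06) and by 0.86 to 1.17 in every pair, while the change of Psmb6 ran from -0.02 to 1.55. Psmb10 over Psmb7 was at -0.09 ± 0.55 (SD, n = 6 pairs; exact permutation p = 0.719, adjusted 0.719), between -0.73 and -0.34 in the BALB/c pairs and between 0.15 and 0.64 in the BL6 pairs. Psmb10 did not pass for LPS (0.18, adjusted p = 0.399).

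**Figure D3:**
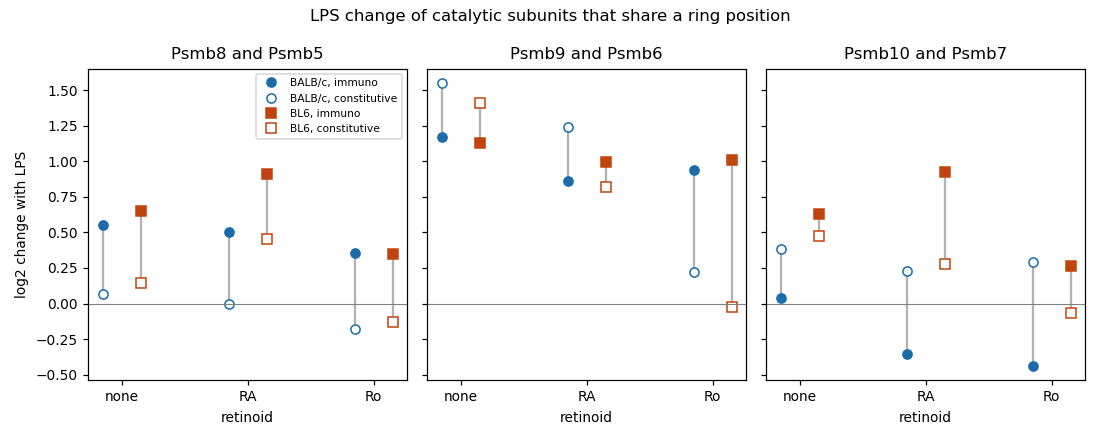
Log2 change with LPS in each of the 6 pairs of cultures (strain by retinoid) of the immunoproteasome gene (filled) and its constitutive counterpart (open), with circles for BALB/c and squares for BL6. Psmb8 lies above Psmb5 in 6 of 6 pairs, and Psmb9 above Psmb6 in 3 of 6, including both Ro pairs.

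The LPS change was then read separately for each retinoid state, from different arrays. Without retinoid 13 constitutive genes rose and 1 (Psmd6) fell, against 16.3% and 22.1% of all genes. The 13 were Psma5, Psma6, Psmb6, Psmb7, Psmc1, Psmc6, Psmd1, Psmd4, Psmd5, Psmd8, Psmd10, Psmd11 and Psmd12. In RA cultures 10 rose and Psmd6 fell, against 12.5% and 16.9%. In Ro cultures 2 rose (Psmd10 and Psmd11) and 2 fell (Psmc3 and Psmd6), against 12.2% and 15.5%. The medians of the 35 changes were 0.22, 0.26 and -0.19, where those of all genes were -0.06, -0.04 and 0.03. Under the deposited scaling the numbers higher and lower were 8 and 3 without retinoid (against 8.05% and 37.7% of all genes), 4 and 3 in RA (6.55% and 28.6%) and 0 and 5 in Ro (6% and 24%). Under a common trimmed mean they were 21 and 1 (against 13.9% and 27.5%), 14 and 1 (11.4% and 18.9%) and 4 and 2 (10.7% and 17.4%). Psma8, below background, was among the lower genes of each state under the deposited scaling, and nothing is read from its call. Leaving out single arrays moved the count in each state, in fits that leave a condition with 1 culture. Without the BALB/c culture with no addition, fewer genes were also called over all genes for LPS without retinoid.

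The lower LPS change in Ro cultures appeared in both strains. In BALB/c the medians of the 35 genes were 0.19 without retinoid, 0.17 with RA and -0.20 with Ro, and in BL6 they were 0.24, 0.35 and -0.14. Averaged over strains, 33 of 35 genes had their lowest LPS change in Ro, a count for which the share of all genes was not computed. The difference itself was tested as the interaction of Ro with LPS. It was below 0 for 33 of 35 genes against 47% of all genes, with a median of -0.32 against 0.05 for all genes. Psma8, below background, is in both counts of 33, and nothing is read from it. The median stayed below 0 under the deposited scaling (-0.36 against 0.14 for all genes) and under a common trimmed mean (-0.42 against 0.10).

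Only 1 of the 35 passed the interaction test, as did 1.4% of all genes: Psmb6, whose LPS change was 1.38 lower on the log2 scale in Ro cultures than without retinoid (difference -1.38 ± 0.20, SE; adjusted p = 0.0182). Its LPS change was 1.48 without retinoid (adjusted p = 8.98e-05), 1.03 with RA (adjusted p = 0.000696) and 0.10 with Ro, which did not pass. The interaction was called under all 3 scalings but not without strain as a block (adjusted p = 0.277), and leaving out 1 array at a time gave -1.47 to -1.31. It missed the threshold without the BALB/c or BL6 culture with no addition, without either culture with Ro alone, without the BALB/c culture with Ro and LPS, or without the BL6 culture with LPS alone (adjusted p from 0.052 to 0.0856). Of the genes that did not pass, Psmd1 had the largest difference (-1.03 ± 0.25, SE, limma adjusted p = 0.0767).

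**Figure D4:**
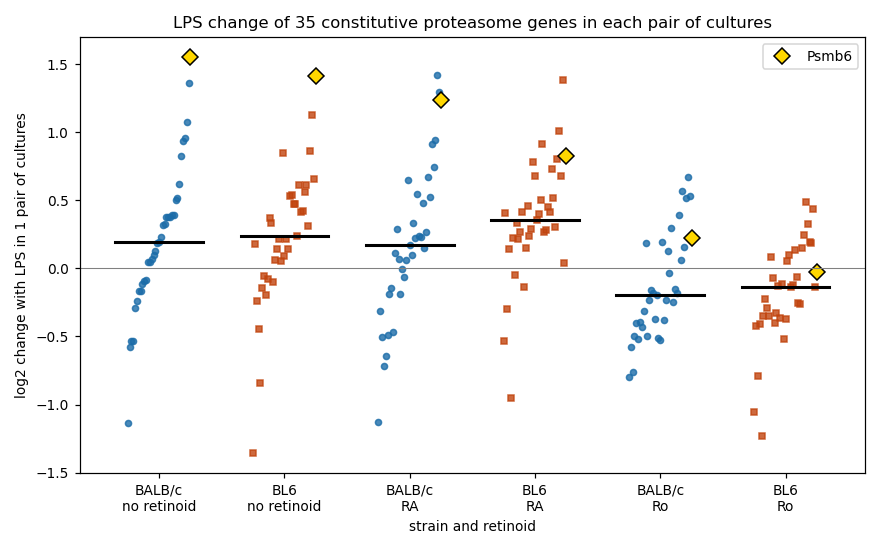
Log2 change with LPS of 35 genes in each pair of cultures with the same strain and retinoid; each point is a gene, bars are medians and the diamond is Psmb6. The medians of the Ro pairs are -0.20 and -0.14, and those of the other 4 pairs lie between 0.17 and 0.35.

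Among LPS cultures alone, 4 constitutive genes were lower with Ro than without retinoid and 0 were higher. Of all 12429 genes, 1123 were called lower and 1391 higher (20.2% in either direction). Psmb6 was lower by 1.14 (difference -1.14 ± 0.14, SE; 2.20-fold; adjusted p = 0.00117) and was the only one called under all 3 scalings. Psmd10 was at -0.65, Psmd1 at -0.60 and Psmb3 at -0.53 (limma adjusted p = 0.0228, 0.0394 and 0.0242). All lost their calls under the deposited scaling, which called Psmb6 and Psmd8 lower and Psmd6 higher. Over all genes that scaling called 695 lower and 1990 higher. A common trimmed mean gave 5 lower, with 1118 of all genes called lower and 1656 higher. Without the BL6 culture with LPS alone, or without either culture with Ro and LPS, the count was 1; without the BALB/c culture with LPS alone it was 2.

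Without LPS, 0 constitutive genes passed for Ro against no retinoid by limma, where 3.89% of all genes did. The differences lay above 0 for 33 of 35 genes, against 52.7% of all genes, with a median of 0.29 against 0.03; these arrays also enter the interaction. The smallest adjusted p was that of Psmd14, the lid deubiquitinase, with 0.52 ± 0.13 (SE; adjusted p = 0.0587). Above-0 counts were 34 and 31 of 35 under the deposited and trimmed scalings, against 64.6% and 50.9% of all genes.

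Averaged over both LPS states, 0 constitutive genes passed for Ro against no retinoid by limma (14.2% of all genes did). The smallest p was that of Psma6. Its signals in the Ro cultures were 5793 and 6033 (BALB/c without and with LPS) and 5741 and 8060 (BL6), those without retinoid 4170, 6429, 3822 and 5644, and those with RA 3918, 5644, 4105 and 5079. The highest culture without retinoid thus overlapped the Ro cultures, and the difference was 0.37 ± 0.12 (SE; adjusted p = 0.0555). Psmd6, whose arrays are given above, had a difference of 0.41 ± 0.14 (SE; adjusted p = 0.0838); it and Psmc3 were called higher under the deposited scaling (adjusted p = 0.0399 and 0.0444), where the median of all genes was 0.23. Among all called genes 53.5% were higher with Ro, and 76.4% under the deposited scaling. Macrophage markers moved with Ro too: 3 of 5 fell, with a summed signal of 3650 to 17410 in Ro cultures and 16910 to 24190 without retinoid. Of 8 dendritic cell markers, 3 were higher with Ro and 0 lower. The part of either cell type in the proteasome values was not tested.

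RA changed 0 constitutive genes in any of 3 tests by limma. Averaged over LPS states 0.0322% of all genes were called. Psmd6 at 0.42 and Psmb5 at 0.28 had the smallest limma adjusted p of the 35 (0.361 and 0.473). Without LPS 0.225% of all genes were called, and with LPS 0%. Without LPS the RA differences lay above 0 for 31 of 35 genes, against 54.1% of all genes, with a median of 0.14 against 0.03; with LPS they did so for 30 of 35, against 53.7%. The RA and Ro comparisons share the arrays without retinoid. The interaction of RA with LPS called 0 of the 35 and 0% of all genes. Between the retinoids, where 17.4% of all genes were called, Psma6 was lower with RA than with Ro (-0.45 ± 0.12, SE; adjusted p = 0.0215) and Psmb3 was higher (0.51 ± 0.15, SE; adjusted p = 0.0352). The first was not called under a common trimmed mean and the second not under the deposited scaling. Psmb3 was also not called with the mean of all kept probe sets of a gene. Psma6 was not called without the BALB/c culture with RA alone, either culture with Ro alone, or the BL6 culture with RA and LPS or with Ro and LPS; Psmb3 was not called without the BL6 culture with RA alone or any of the 4 cultures with LPS and either retinoid. Among all genes called between the retinoids, 48.9% were higher with RA, and 27.1% under the deposited scaling.

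Between strains, 2 constitutive genes were higher in BALB/c and 4 in BL6, where 7.27% of all genes were called higher in BALB/c and 8.13% lower. Psmd10 had the smallest p and was lower in BALB/c by 0.63 (difference -0.63 ± 0.14, SE; adjusted p = 0.0121), the BALB/c culture lying below the BL6 culture in all 6 conditions. Psma2, Psma4 and Psmb1 were also lower in BALB/c (-0.29, -0.37 and -0.31). Psmd2, a scaffold that receives shuttle factors, was higher in BALB/c. Its signals without LPS were 2081, 2022 and 2619 in BALB/c (no retinoid, RA, Ro) and 1390, 1593 and 1594 in BL6, and with LPS 2595, 2552 and 2007 in BALB/c and 1533, 2103 and 1704 in BL6. Of the BL6 arrays only that with RA and LPS reached the BALB/c range. The difference was 0.48 ± 0.12 (SE; adjusted p = 0.0174), and that of Psmd5 was 0.54 ± 0.14 (SE; adjusted p = 0.025). Psmd2 and Psmd5 were called under all 3 scalings, whereas none of the 4 lower genes was called under the deposited scaling, where the median of all genes was 0.14 and 74.7% of called genes were higher in BALB/c (47.2% after quantile normalization). Leaving out 1 array at a time left 1 or 2 genes higher in BALB/c, and between 1 (without the BALB/c culture with no addition or the BL6 culture with Ro alone) and 4 lower. The interaction of strain with LPS called 0 of the 35 genes by limma and 0.0241% of all genes.

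Genes that act with the proteasome were read from lists chosen with earlier results known. The shares of all genes called with LPS, 24.3% higher and 29% lower, are the background for each list. Of 5 assembly factors tested, 0 rose and 3 fell with LPS. Psmg1 and Psmg2, which together build the alpha ring, fell by 1.34 ± 0.14 (SE; adjusted p = 1.37e-05) and 1.08 ± 0.14 (SE; adjusted p = 6.45e-05), and Psmg3, which acts in the same step with Psmg4, fell by 0.79 ± 0.17 (SE; adjusted p = 0.00224). Psmg1 lay between 367 and 694 without LPS and between 139 and 319 with it, without overlap. All 3 calls held under each scaling. Psmg4 and Pomp, which guides the beta ring, had changes of -0.01 and 0.13 and did not pass, though Pomp was called higher (0.44, adjusted p = 0.00577) under a common trimmed mean. Read by retinoid, Psmg4 had an LPS change of -0.26 without retinoid, which did not pass, fell by 0.59 in RA cultures (adjusted p = 0.0495) and rose by 0.82 in Ro cultures (adjusted p = 0.0139, and 0.108 under the deposited scaling).

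Of 4 activators and inhibitors tested, 2 rose with LPS. Psme1, a subunit of the PA28 cap induced by interferon, rose by 0.67 ± 0.09 (SE; adjusted p = 0.000141) under all 3 scalings, and Psmf1 by 0.65 ± 0.13 (SE; adjusted p = 0.00118), which the deposited scaling did not call (0.19, adjusted p = 0.307). Of 8 regulators of proteasome genes tested, 2 rose and 3 fell, close to the shares of all genes. Stat3 rose by 1.17 and Nfyb by 0.80, while Ngly1, the glycosidase that Nfe2l1 needs for its activation, fell by 0.54 and Nfyc by 0.37 (adjusted p = 5.74e-06, 0.00422, 0.0107 and 0.0369); Nfe2l2 also fell, by 0.29 (adjusted p = 0.0291). Nfyb was not called under the deposited scaling (0.29, adjusted p = 0.222), nor Nfe2l2 under a common trimmed mean (-0.05, adjusted p = 0.714). Nfe2l1 had a change of 0.28 and did not pass (adjusted p = 0.0832). With Ro, Psmb8 and Psmb9 rose by 0.49 and 0.53 (adjusted p = 0.0217 and 0.00439), calls that a common trimmed mean did not give (0.25 and 0.34, adjusted p = 0.21 and 0.0815), and no assembly factor, activator or regulator passed after quantile normalization. The deposited scaling called Psmg1, Psmg2, Psmg3, Psmg4 and Nfe2l1 higher with Ro (adjusted p = 0.0296, 0.0203, 0.043, 0.0232 and 0.0271), and a common trimmed mean called Psmg1 and Psmg2 higher (0.0451 and 0.0494) and Nfe2l2 lower (0.0437).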

How the data were processed

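Signal intensities of 45101 probe sets on 12 arrays were used as deposited; per the submitters' processing notes they come from MAS5, and no version or scaling target is given in the sources used here. The deposited values are linear signal intensities. Of the probe sets, 34945 were assigned to a single gene by the platform annotation, and all 36 members matched a current gene. Arrays were quantile-normalized (limma 3.58.1, R 4.3.3), 16 was added before log2, and genes were kept whose best probe set exceeded the median of its array on at least 2 of 12 arrays. Models in limma (empirical Bayes with intensity trend) held LPS, retinoid and strain, or the 6 conditions and strain, with Benjamini-Hochberg adjustment over 12429 genes. The replicate number in the labels is the strain, so strain served as the block: strain differences of the 15 pairs of conditions correlated at 0.309 to 0.706. Members and lists were chosen with earlier results of these data known; every member is named, and arrays are given in full for the genes with the largest LPS rises and falls, the smallest p for Ro and for strain, and Psmb5, Psmb6 and Psmb7. Of related lists, up to 4 called genes with the smallest p are named, and Nfe2l1, Nfe2l2, Psmg4 and Pomp were added after their values were seen. Psme2 shares its probe set with another gene and was not tested. On simulated data for the LPS comparison (12429 genes, 200 changed), 54% of log2 changes of 1 and 15% of changes of 0.5 were recovered. Of the simulated calls, 4.17% were false. In the data far more genes were called with LPS, 24.3% higher and 29% lower, which eases the adjusted threshold. The simulated shares therefore do not give the recovery of LPS changes in the data. The number of arrays limits the precision.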

Additional observations from a re-analysis of the deposited data

Results flagged for a closer look

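Psmb6 was singled out because its LPS change differed between Ro cultures and cultures without retinoid by a test of the difference itself: -1.38 on the log2 scale (limma interaction, adjusted p = 0.0182), in both strains the same way.

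The ratio of Psmb9 to Psmb6 moved with LPS in opposite directions in both cultures of each kind: the mean change was -0.34 without retinoid and 0.88 with Ro. The ratio of Psmb10 to Psmb7 did so between strains, with -0.55 in BALB/c and 0.38 in BL6. Neither difference between ratios was tested.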

How the results depend on the processing

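Of the 17 genes called with LPS, 11 stayed called whichever of the 12 arrays was left out. Of these, 3 (Psmd6, Psmd10 and Psmd11) also stayed called under each of the 10 other settings, and 6 did so when single strains are set aside. Psma8, below background, is counted in the 17, the 11 and the 6, and nothing is read from its call. Among gene-level changes with LPS, Psmb1 was reversed with the mean of all kept probe sets (0.32, limma adjusted p = 0.0387). Its probe sets gave -0.13, 0.50 and 0.59 at mean deposited signals of 2543, 70.6 and 66.0, so the dimmer ones changed the sign of the mean. Psmc1 was reversed under the deposited scaling (-0.070, limma adjusted p = 0.656), where the median of all genes was also lower. The cause for Psmc1 was not tested.

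Under the deposited scaling the counts were 7 higher and 8 lower with LPS, 2 higher with Ro, 0 higher with RA against Ro, 0 lower in BALB/c and 7 for LPS in RA. Psma8, below background, was among the 8 lower with LPS and the 7 for LPS in RA. It was called lower with LPS in every setting of this paragraph but BALB/c alone. A common trimmed mean gave 22 for LPS without retinoid and 0 lower for RA against Ro. Without the intensity trend there were 0 and 0 for RA against Ro, 1 lower in BALB/c, 7 for LPS without retinoid, 2 for Ro with LPS and 0 for the Ro interaction. Without the filter 2 were lower in BALB/c, and the mean of all kept probe sets left 0 higher for RA against Ro. Without strain as the replicate block there were 10 higher and 4 lower with LPS, 0 higher for RA against Ro, 6 for LPS without retinoid, 7 in RA, 2 in Ro, 1 for Ro with LPS and 0 for the Ro interaction. Fitting only the arrays compared gave 9 for LPS without retinoid, 5 in RA and 2 for Ro without LPS. BALB/c alone (fewer samples) gave 6 higher with LPS and BL6 alone 2 higher and 2 lower. Each gave 0 and 0 for RA against Ro. As fitted above, LPS calls over all genes were 3015 higher and 3600 lower. They were 2575 and 3078 without the block, 1937 and 2393 in BALB/c alone, and 1203 and 1637 in BL6 alone. For LPS without retinoid, calls over all genes were 2028 and 2743 as fitted above. They were 1983 and 2596 without the intensity trend, 1323 and 1753 without the block, and 1835 and 2367 with only the arrays compared.

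With 1 array left out the counts ran from 8 to 12 higher and 4 to 7 lower with LPS, 0 to 3 higher with Ro, 0 to 1 higher and 0 to 1 lower for RA against Ro, 1 to 2 higher and 1 to 4 lower in BALB/c, 6 to 17 for LPS without retinoid, 5 to 12 in RA, 1 to 7 in Ro, 0 to 2 for Ro without LPS, 1 to 5 for Ro with LPS, 0 to 2 for RA with LPS and 0 to 1 for the Ro interaction. The count of higher genes with LPS was 8 without the BALB/c culture with RA or with LPS alone, or the BL6 culture with no addition. The 7 lower genes, the 3 higher with Ro and the 17 for LPS without retinoid arose without the BL6 culture with RA and LPS, and without the BALB/c culture with RA and LPS 17 and, for RA with LPS, 2 were called. A left-out array leaves a condition with 1 culture, assumed to vary like the others. Calls over all genes moved as well: without the BALB/c culture with no addition, fewer were called with LPS over all genes.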

Other observations

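Of 5 other proteasome-associated factors tested, 1 rose and 2 fell with LPS, where 24.3% and 29% of all genes did. Ecpas, which tethers proteasomes to other structures, rose by 0.71 ± 0.16 (SE; limma adjusted p = 0.00341), Sem1, a small lid subunit, fell by 0.48 ± 0.07 (SE; adjusted p = 0.00021), and Uchl5, a deubiquitinase of the cap, fell by 0.36 ± 0.12 (SE; adjusted p = 0.0275). Uchl5 was also higher with Ro (0.59 ± 0.15, SE; adjusted p = 0.0262), under all 3 scalings. Under the deposited scaling Ecpas was not called for LPS (0.24, adjusted p = 0.267), and under a common trimmed mean Sem1 was not (-0.17, adjusted p = 0.124).

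Of 7 shuttle factors and p97 genes tested, 2 rose and 3 fell with LPS, close to the shares of all genes. Ufd1 and Nploc4, the cofactors of p97, rose by 0.70 and 0.61 (adjusted p = 0.000923 and 0.00127), whereas Vcp, which encodes p97 itself, fell by 0.57 and the shuttle factor Ubqln2 by 0.59 (adjusted p = 0.00527 and 0.00608). The 2 rises were not called under the deposited scaling (adjusted p = 0.11 and 0.49), nor was the fall of Vcp under a common trimmed mean (adjusted p = 0.0895). Vcp was higher with Ro (0.65 ± 0.17, SE; adjusted p = 0.0301). Of the ubiquitin genes and activating enzymes only Uba6 had a probe set of its own that passed, and it was not called for LPS (0.50, adjusted p = 0.125).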
